A study of Mus musculus with 16 samples.

Results

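The circadian clock of mammals is a loop of transcription factors that runs in nearly every cell, the hippocampus included. CLOCK and BMAL1 (the product of Arntl) bind DNA together and switch on the Period, Cryptochrome, Rev-erb and Dbp genes. The Period and Cryptochrome proteins then return to the nucleus and block CLOCK and BMAL1, while the Rev-erb receptors (Nr1d1 and Nr1d2) repress Arntl. In hippocampal tissue these genes are known to cycle over the day in a rhythm set by the master clock in the suprachiasmatic nucleus, by glucocorticoids and by activity.

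The 10 clock genes described here are Per1, Per2, Per3, Cry1, Ciart, Dbp, Nr1d1, Nr1d2, Arntl and Clock. They were chosen by symbol as core clock and clock output genes, with earlier results of these data known. All 10 were found among the 19449 genes of a count table of mouse hippocampus. All 10 also passed the filter on low counts, which left 16269 genes. The table holds 16 libraries from 3-month-old mice, 4 in each of 4 groups: Tspo knockout injected with lipopolysaccharide (LPS, a bacterial wall component that sets off inflammation), Tspo knockout injected with PBS (the vehicle), wild type injected with LPS, and wild type injected with PBS. Tspo encodes the translocator protein of the outer mitochondrial membrane. The labels give no strain, no description of the knockout allele, no LPS dose, no time from injection to collection and, which matters for clock genes, no time of day of collection. They do not say whether the replicates were separate animals, so n counts libraries and p-values measure the spread between these libraries.

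Library totals ran from 30198619 to 50009041 counts, and a clock gene held between 224 counts (the lowest value of Ciart) and 8816 counts (the highest of Per1) in a library. The libraries labelled hippocampus all held each of 8 hippocampal neuron markers, at a summed 632 to 1146 CPM (a gene's counts relative to the total of its library, with totals scaled by TMM). Markers of the hypothalamus and suprachiasmatic nucleus were mixed, with 6 in the table. Avp reached at most 1.33 CPM and Pomc 1.21 CPM, Oxt was at 0 in 7 libraries and Agrp at 0 in 3. Vip and Lhx1 were above 0 in every library and reached 27.3 and 17.0 CPM. Tspo itself averaged 0.334 ± 0.12 CPM in knockout LPS and 8.51 ± 4.06 CPM in wild-type LPS (SD, n = 4 each). It stood at 2.33, 0.152, 0.28 and 0.47 CPM in the libraries labelled knockout PBS, against 2.52, 2.59, 2.06 and 5.17 CPM in wild-type PBS, so the library labelled knockout PBS replicate 1 went against its label. Lcn2, an acute-phase gene, stood at 0.641, 238, 209 and 237 CPM in wild-type LPS and at most 0.302 CPM in the other 3 groups. Wild-type LPS replicate 1 thus lacked the inflammatory response of the other wild-type LPS libraries, and the knockout LPS libraries lacked it too. Y-linked genes marked 2 male libraries of 4 in knockout LPS, 2 in knockout PBS, 1 in wild-type LPS (replicate 1) and 1 in wild-type PBS (replicate 4). Codes of unstated meaning in the titles separate the genotypes within each injection and the injections within the knockout, so these contrasts and the codes cannot be told apart. Within wild type, LPS replicate 1 and PBS replicate 4 share a code. The other wild-type LPS libraries carry 1 code and the other wild-type PBS libraries carry another. Without wild-type LPS replicate 1, injection and code therefore cannot be told apart in wild type either. Knockout PBS replicate 4 carries the code of the other wild-type LPS libraries.

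Of the 10 clock genes, Per3, a repressor of the loop, was the one that passed with LPS in wild type, rising 1.59-fold. Its fold in the knockout was 1.02 and did not pass. The difference between the genotypes in this response of Per3 did not pass either. Under LPS, Per3 and Ciart, another repressor, were lower in the knockout than in wild type, at 0.631 and 0.557 of its level, and the activator Clock was 1.24-fold higher. Of all genes, 8.57% were called with LPS in wild type and 11.9% between the genotypes under LPS. No clock gene passed the test between knockout PBS and wild-type PBS, where 0.0369% of all genes did. None passed between knockout LPS and knockout PBS, where 0.0% of all genes did. In fits of only the 8 libraries compared, no clock gene was called. The plot of all 10 genes by library shows their levels.

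**Figure D1:**
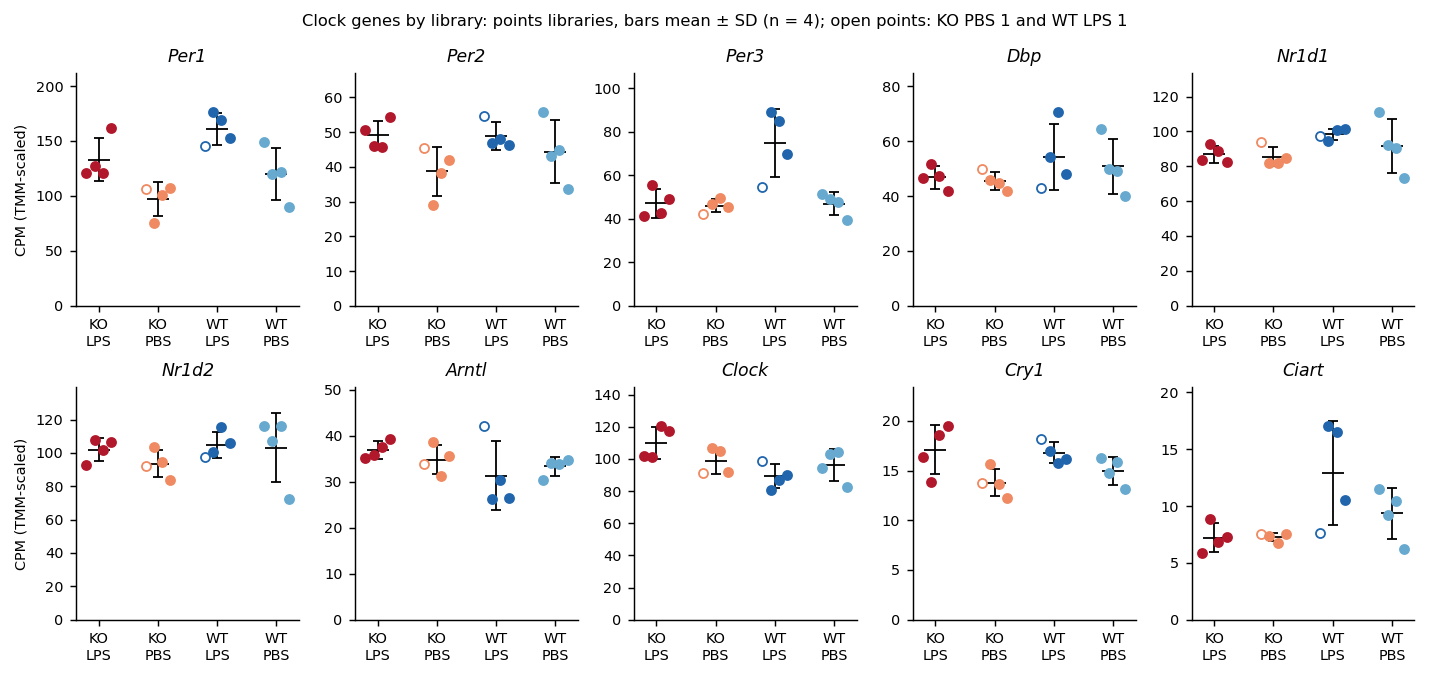
CPM (y axis, from 0) of the 10 clock genes in each library, by group, with the mean and SD of 4 libraries as bars. Open points mark the library labelled knockout PBS replicate 1 and wild-type LPS replicate 1. Wild-type LPS replicates 2 to 4 carry the highest Per3 levels, 69.9 to 89.0 CPM, above the other 13 libraries at 39.5 to 55.3 CPM.

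Compared per kilobase of exon, so that genes can be ranked, the mean level in wild-type PBS was 29.8 ± 5.05 CPM per kb for Nr1d1, 21.4 ± 4.26 for Per1, 19.0 ± 3.83 for Nr1d2 and 17.0 ± 3.34 for Dbp (SD, n = 4). The second tier held Per2 at 7.58 ± 1.55, Clock at 7.0 ± 0.734, Per3 at 4.89 ± 0.543, Cry1 at 4.49 ± 0.426, Arntl at 4.42 ± 0.264 and Ciart at 4.14 ± 0.999 CPM per kb. The only neighbours in this order whose wild-type PBS libraries did not overlap were Dbp above Per2 and Clock above Per3. Over all 16 libraries the ratio of the highest to the lowest CPM ran from 1.49 for Clock to 2.91 for Ciart, with 2.35 for Per1 and 2.25 for Per3 next to it. The lowest value of Dbp, Nr1d1, Nr1d2 and Per3 was in each case wild-type PBS replicate 4.

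Windows of DNA around the start sites were searched for exact matches to clock motifs. The windows below run from 250 bases before to 50 bases after a RefSeq start site (GRCm38.p6), 5′ to 3′ along the gene. They are the member promoters in which an exact motif was found, and capitals mark the match. The motifs searched, on both strands, were the E-box CACGTG bound by CLOCK and BMAL1, the D-box TTATGTAA or TTACGTAA bound by DBP, TEF and HLF, the ROR/REV-ERB element TAGGTCA or TGGGTCA, and the cAMP element TGACGTCA.
Per3 (chr4:151044616-151044915, minus strand): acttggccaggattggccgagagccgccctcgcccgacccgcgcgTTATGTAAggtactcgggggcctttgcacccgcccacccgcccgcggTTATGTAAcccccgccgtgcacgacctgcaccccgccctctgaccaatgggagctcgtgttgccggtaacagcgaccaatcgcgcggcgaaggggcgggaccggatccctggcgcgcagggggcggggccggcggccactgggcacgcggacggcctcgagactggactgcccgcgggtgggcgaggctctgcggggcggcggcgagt
Ciart (chr3:95882179-95882478, minus strand): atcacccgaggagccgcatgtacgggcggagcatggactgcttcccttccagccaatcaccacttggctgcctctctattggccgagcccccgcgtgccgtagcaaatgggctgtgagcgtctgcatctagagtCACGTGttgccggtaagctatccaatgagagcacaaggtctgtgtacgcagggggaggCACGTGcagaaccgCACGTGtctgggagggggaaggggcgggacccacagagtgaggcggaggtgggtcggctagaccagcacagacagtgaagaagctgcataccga
Cry1 (chr10:85185005-85185304, minus strand): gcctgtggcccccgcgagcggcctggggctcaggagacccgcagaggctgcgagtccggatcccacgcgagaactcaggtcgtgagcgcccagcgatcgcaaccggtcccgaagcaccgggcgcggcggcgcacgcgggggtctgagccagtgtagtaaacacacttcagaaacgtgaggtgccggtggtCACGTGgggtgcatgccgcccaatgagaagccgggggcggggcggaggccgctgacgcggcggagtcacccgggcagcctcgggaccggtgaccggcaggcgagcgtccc
Per1 (chr11:69098699-69098998, plus strand): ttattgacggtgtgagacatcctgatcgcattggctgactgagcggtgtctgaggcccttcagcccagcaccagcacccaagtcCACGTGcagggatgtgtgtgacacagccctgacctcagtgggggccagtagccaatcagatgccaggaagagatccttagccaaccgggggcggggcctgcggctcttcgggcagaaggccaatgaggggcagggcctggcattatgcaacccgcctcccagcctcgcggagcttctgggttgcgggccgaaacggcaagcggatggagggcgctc
Arntl (chr7:113207261-113207560, plus strand): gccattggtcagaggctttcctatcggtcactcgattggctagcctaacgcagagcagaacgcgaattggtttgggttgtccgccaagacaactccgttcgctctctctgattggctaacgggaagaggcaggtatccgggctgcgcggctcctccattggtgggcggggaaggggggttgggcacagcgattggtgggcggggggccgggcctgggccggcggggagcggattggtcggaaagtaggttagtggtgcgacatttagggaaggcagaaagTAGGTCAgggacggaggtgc
Ciart carried 3 E-boxes, which began at positions -116, -58 and -44 from the start site. Cry1 and Per1 carried 1 each, at -60 and -166, that of Per1 in the first of its 2 listed windows. Per3 carried no E-box in this window but 2 D-boxes, at -205 and -158, and Arntl a ROR/REV-ERB element at 30 in the second of its 2 windows. Of 32851 mouse promoters of the same length, 7.15% held the E-box, 1.06% the D-box, 6.45% the ROR/REV-ERB element and 1.79% the cAMP element. No match overlapped another, and Dbp, Nr1d1, Nr1d2 and Clock had none in their listed windows. Motifs outside the windows or with other letters were not searched, so a gene without a match may still carry one. Per2 had no window among these promoters, so it was not searched.

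**Figure D2:**
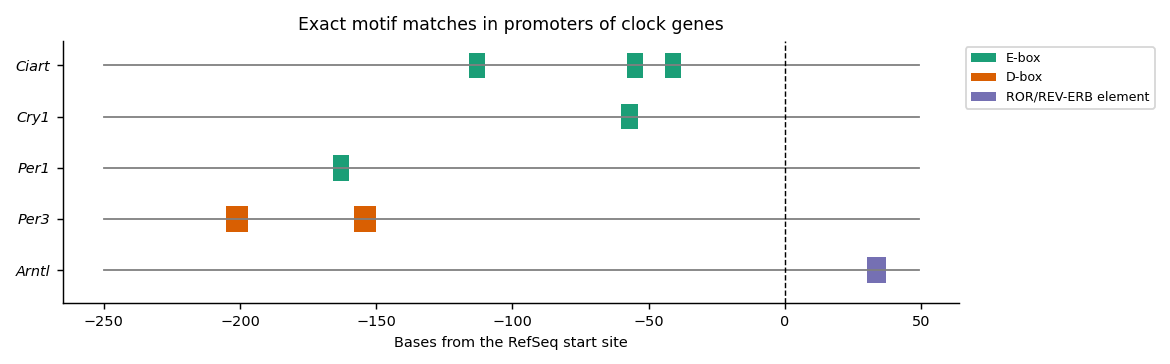
Exact motif matches in the windows printed above, by distance in bases from the RefSeq start site (x axis, dashed line at 0), 1 row per gene. Ciart has 3 E-boxes between -116 and the start site, and Per3 has 2 D-boxes upstream of -150.

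The Period genes encode the clock's main repressors, and Per3 (ENSMUSG00000028957, chr4:151003652-151044665, minus strand, GRCm38 in GENCODE M21) is held to be the least essential of them for the rhythm. Per3 stood at 41.0, 55.3, 42.7 and 49.2 CPM in knockout LPS and at 42.3, 46.7, 49.7 and 45.2 CPM in knockout PBS. It stood at 54.5, 89.0, 84.7 and 69.9 CPM in wild-type LPS and at 51.5, 49.2, 47.6 and 39.5 CPM in wild-type PBS. The wild-type LPS libraries all lay above the wild-type PBS libraries, with replicate 1 just above them, whereas the knockout groups overlapped throughout. Per3 rose 1.59-fold in wild-type LPS over wild-type PBS, a log2 fold change of 0.67 ± 0.14 (SE), with an adjusted p of 0.0095 by edgeR's quasi-likelihood test with Benjamini-Hochberg adjustment over all genes tested. In the knockout its log2 fold change with LPS was 0.03 ± 0.14 (adjusted p = 0.955). Per3 was lower in knockout LPS than in wild-type LPS by a log2 fold change of -0.67 ± 0.14 (adjusted p = 0.00825), although these groups overlapped, with knockout LPS replicate 2 at 55.3 CPM above wild-type LPS replicate 1 at 54.5 CPM. Without wild-type LPS replicate 1, Per3 was 0.79 ± 0.11 in wild-type LPS over wild-type PBS (adjusted p = 0.000204) and -0.79 ± 0.11 in knockout LPS over wild-type LPS (adjusted p = 0.000202). The difference between the genotypes in the response of Per3 to LPS was -0.64 ± 0.19 on the log2 scale and did not pass (adjusted p = 0.0865). It passed without that library, at -0.76 ± 0.16 (adjusted p = 0.00547). Fits of only the 8 libraries compared gave Per3 the same sizes, with adjusted p of 0.0899 in wild type and 0.058 between the genotypes under LPS, so neither call held there. Within the code shared by wild-type LPS replicate 1 and wild-type PBS replicate 4, both male, Per3 stood at 54.5 and 39.5 CPM, 1 library each.

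Per1 (ENSMUSG00000020893, chr11:69095217-69109960, plus strand) is the Period gene that glucocorticoids and neuronal activity are known to induce directly. It stood at 120.84, 127.39, 121.01 and 161.54 CPM in knockout LPS, all above the 106, 74.9, 101 and 108 CPM of knockout PBS. It stood at 145, 176, 169 and 153 CPM in wild-type LPS, against 149, 120, 122 and 90.1 CPM in wild-type PBS, where replicate 1 reached into the LPS range. The log2 fold change with LPS was 0.45 ± 0.15 in the knockout (adjusted p = 0.703, unadjusted p = 0.00792) and 0.42 ± 0.15 in wild type (adjusted p = 0.088), so Per1 passed in neither. The interaction of Per1 was 0.03 ± 0.21 (adjusted p = 0.956). In wild type, the call for Per1 came with the removal of a library, at 0.54 ± 0.14 without wild-type PBS replicate 1 (adjusted p = 0.0336) or 0.46 ± 0.16 without wild-type LPS replicate 1 (adjusted p = 0.0496). It also passed by DESeq2, with an adjusted p of 0.0451. Without knockout LPS replicate 4, which stands apart, the knockout value of Per1 was 0.34 ± 0.15 (adjusted p = 0.934). With the doubtful knockout PBS replicate 1 left out, Per1 was 0.49 (adjusted p = 0.707). Knockout PBS replicate 2, the lowest library for Per1, was also the highest of all 16 for thalamic and cerebellar markers, at a summed 1123 CPM against 309, 229 and 110 CPM in the other knockout PBS libraries. Leaving it out gave Per1 0.35 ± 0.14 in the knockout (adjusted p = 0.821).

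Per2 (ENSMUSG00000055866, chr1:91415982-91459324, minus strand), whose loss shortens and then abolishes rhythm in mice, stood at 50.7, 46.1, 45.6 and 54.3 CPM in knockout LPS and at 45.3, 29.2, 38.3 and 41.9 CPM in knockout PBS. Those knockout groups were apart by a narrow margin, between 45.6 and 45.3 CPM. It stood at 54.8, 46.8, 47.9 and 46.4 CPM in wild-type LPS, against 55.8, 43.1, 44.99 and 33.7 CPM in wild-type PBS, which overlapped. The log2 fold change of Per2 with LPS was 0.35 ± 0.14 in the knockout (adjusted p = 0.703, unadjusted p = 0.027) and 0.14 ± 0.14 in wild type (adjusted p = 0.594). The lowest Per2 of all 16 libraries was again that of knockout PBS replicate 2, and without it the knockout value of Per2 was 0.24 ± 0.13 (adjusted p = 0.821).

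Cry1 and Ciart encode the other repressors. Cry1 (ENSMUSG00000020038, chr10:85131700-85185064, minus strand) is the partner of the Period proteins that silences CLOCK and BMAL1. It stood at 16.4, 13.9, 18.6 and 19.5 CPM in knockout LPS and at 13.8, 15.7, 13.6 and 12.3 CPM in knockout PBS. It stood at 18.2, 16.9, 15.7 and 16.2 CPM in wild-type LPS and at 16.3, 14.7, 15.9 and 13.1 CPM in wild-type PBS. Both pairs of groups overlapped in Cry1, although every LPS library lay above the PBS mean of its genotype. Its log2 fold change with LPS was 0.30 ± 0.11 in the knockout (adjusted p = 0.703, unadjusted p = 0.0129) and 0.16 ± 0.11 in wild type (adjusted p = 0.388).

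Ciart (ENSMUSG00000038550, chr3:95878503-95882251, minus strand) encodes CHRONO, a repressor that binds BMAL1. It stood at 5.86, 8.90, 6.85 and 7.24 CPM in knockout LPS and at 7.52, 7.34, 6.72 and 7.52 CPM in knockout PBS. It stood at 7.63, 17.0, 16.5 and 10.6 CPM in wild-type LPS and at 11.5, 9.23, 10.4 and 6.26 CPM in wild-type PBS. Replicates 2 and 3 of wild-type LPS were well above every other library, replicate 4 lay inside the wild-type PBS range, and so did replicate 1. Ciart was lower in knockout LPS than in wild-type LPS, at 0.557 of its level (log2 fold change -0.84 ± 0.23, adjusted p = 0.0294). That call was lost on leaving out wild-type LPS replicate 2 or 3 or knockout LPS replicate 1, 3 or 4, with values of -0.68, -0.71, -0.76, -0.82 and -0.85 in that order and adjusted p from 0.0615 to 0.0968, and in the fit of the 8 libraries compared (adjusted p = 0.0921 for Ciart). Its log2 fold change with LPS was -0.01 ± 0.23 in the knockout (adjusted p = 0.99) and 0.47 ± 0.23 in wild type (adjusted p = 0.223). Without replicate 1 of wild-type LPS, Ciart was -1.03 ± 0.20 in knockout LPS over wild-type LPS (adjusted p = 0.00196) and 0.65 ± 0.20 in wild-type LPS over wild-type PBS (adjusted p = 0.0313).

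Dbp (ENSMUSG00000059824, chr7:45705088-45710203, plus strand) encodes the D-box factor through which the clock drives many output genes, and is among the strongest cycling transcripts in most tissues. It stood at 46.5, 51.6, 47.3 and 41.7 CPM in knockout LPS and at 50.04, 45.7, 44.9 and 41.9 CPM in knockout PBS. It stood at 43.1, 54.4, 70.7 and 48.2 CPM in wild-type LPS and at 64.3, 49.8, 49.1 and 40.2 CPM in wild-type PBS. All 4 groups overlapped, and the highest library of each wild-type group lay above every knockout library. Dbp passed in no comparison: its log2 fold change with LPS was 0.04 ± 0.15 in the knockout (adjusted p = 0.955) and 0.09 ± 0.15 in wild type (adjusted p = 0.762). Dbp shares 539 exon bases with Sphk2 on the opposite strand, and the sources used here do not say whether counting was strand-specific, so its counts are uncertain to that extent. Sphk2 averaged 31.0 ± 1.67, 31.2 ± 3.23, 30.9 ± 1.64 and 30.7 ± 2.21 CPM in knockout LPS, knockout PBS, wild-type LPS and wild-type PBS (SD, n = 4 each).

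Neither Rev-erb gene passed in any comparison. Nr1d1 (ENSMUSG00000020889, chr11:98767932-98775333, minus strand), a haem-binding repressor of Arntl, stood at 83.3, 92.8, 88.8 and 82.3 CPM in knockout LPS and at 93.9, 82.2, 81.9 and 84.7 CPM in knockout PBS. It stood at 97.1, 94.7, 101 and 101 CPM in wild-type LPS and at 111, 92.3, 90.4 and 73.1 CPM in wild-type PBS. The knockout LPS libraries all lay under the wild-type LPS libraries, by a log2 fold change of -0.18 ± 0.09 that did not pass (adjusted p = 0.212). Nr1d1 shares 263 exon bases with Thra on the opposite strand, a gene at 606 to 824 CPM, so its counts carry the same strand uncertainty as those of Dbp. Nr1d2 (ENSMUSG00000021775, chr14:18204054-18239127, minus strand), its paralogue, averaged 102 ± 6.96 CPM in knockout LPS, 93.6 ± 8.26 CPM in knockout PBS, 105 ± 7.8 CPM in wild-type LPS and 103 ± 20.7 CPM in wild-type PBS (SD, n = 4 each). The log2 fold changes of Nr1d2 lay between -0.14 and 0.13 in the 4 comparisons of groups, with SE of 0.12, and the lowest adjusted p was 0.791.

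Arntl and Clock encode the activators. Clock (ENSMUSG00000029238, chr5:76209868-76304792, minus strand) stood at 102, 101, 120 and 117 CPM in knockout LPS, above the 98.6, 80.8, 86.8 and 90.1 CPM of wild-type LPS without overlap. It stood at 91.0, 107, 105 and 92.0 CPM in knockout PBS and at 94.3, 103, 104 and 82.6 CPM in wild-type PBS, which overlapped. Clock was thus 1.24-fold higher in knockout LPS than in wild-type LPS, a log2 fold change of 0.31 ± 0.09 (adjusted p = 0.0372). The call for Clock was lost on leaving out wild-type LPS replicate 2, 3 or 4 or knockout LPS replicate 3 or 4, with values of 0.26, 0.29, 0.31, 0.26 and 0.27 in that order and adjusted p from 0.0772 to 0.11. It was also lost with sex as a covariate (0.28 ± 0.09, adjusted p = 0.0574) and in the fit of the 8 libraries compared (adjusted p = 0.0751), and without wild-type LPS replicate 1 Clock was 0.36 ± 0.09 (adjusted p = 0.0112). With LPS its log2 fold change was 0.16 ± 0.09 in the knockout (adjusted p = 0.706) and -0.11 ± 0.09 in wild type (adjusted p = 0.495), an interaction of 0.27 ± 0.13 (adjusted p = 0.232).

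Arntl (ENSMUSG00000055116, chr7:113207465-113314126, plus strand) stood at 35.1, 35.7, 37.6 and 39.3 CPM in knockout LPS and at 33.9, 38.6, 31.2 and 35.5 CPM in knockout PBS. It stood at 42.1, 26.3, 30.3 and 26.4 CPM in wild-type LPS and at 30.3, 34.1, 33.8 and 34.8 CPM in wild-type PBS. Replicate 1 of wild-type LPS had the highest Arntl of all 16 libraries, and replicates 2 and 4 the lowest. With all libraries Arntl passed nowhere: its log2 fold change was 0.24 ± 0.12 in knockout LPS over wild-type LPS (adjusted p = 0.206) and -0.09 ± 0.12 with LPS in wild type (adjusted p = 0.707). Leaving out wild-type LPS replicate 1, Arntl was higher in knockout LPS than in wild-type LPS by 0.42 ± 0.08 (adjusted p = 0.00152) and lower in wild-type LPS than in wild-type PBS by a log2 fold change of -0.27 ± 0.08 (adjusted p = 0.0264). The interaction of Arntl was then 0.36 ± 0.11 (adjusted p = 0.0358), against 0.18 ± 0.17 with all libraries (adjusted p = 0.577).

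**Figure D3:**
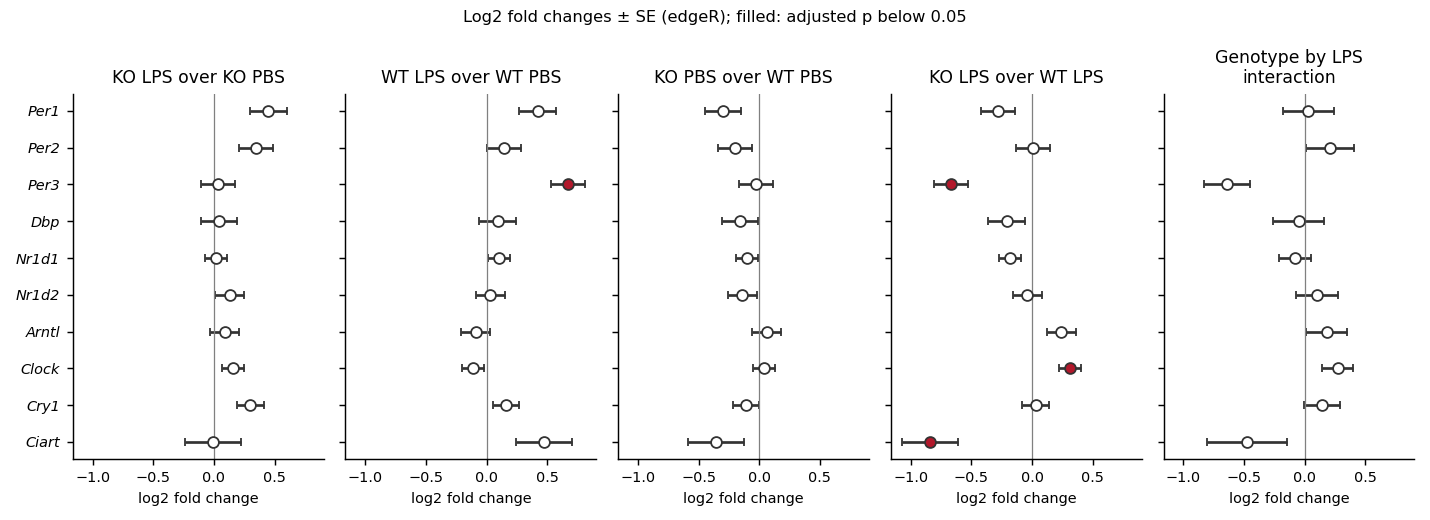
Log2 fold changes (x axis) ± SE of the 10 clock genes in the 4 group comparisons and the interaction, from the edgeR fit of 16 libraries, with filled points where the adjusted p was below 0.05. The filled points are Per3 at 0.67 in wild-type LPS over wild-type PBS, and Per3 at -0.67, Clock at 0.31 and Ciart at -0.84 in knockout LPS over wild-type LPS.

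Read against all genes tested, the counts of clock genes were as follows. In knockout LPS over knockout PBS, 0 of 10 were called, as were 0.0% of all genes by edgeR, where 1120 genes had an unadjusted p under 0.05 and DESeq2 called 3. The groups were apart for 2 of the 10 (Per1 and Per2), against 6.55% of all genes, and 9 of 10 fold changes were positive with a median of 0.11, against -0.01 over all genes. Of the positive values, those of Per3, Dbp and Nr1d1 were near 0 and changed sign on leaving out certain single libraries. Some members also deviated together, so the signs are not independent. In wild-type LPS over wild-type PBS, 1 of 10 was called, against 8.57% of all genes, so the share of clock genes called was near the background. The groups were apart for that same gene, Per3, against 8.62% of all genes, and the median was 0.12 against 0.0. In knockout PBS over wild-type PBS, 0 of 10 clock genes were called against 0.0369% of all genes, 0 were apart against 3.28%, and the median was -0.12. The lowest adjusted p of a clock gene there was 0.918, shared by Per1 at -0.30 ± 0.15 and Ciart at -0.36 ± 0.23. In knockout LPS over wild-type LPS, 3 of 10 were called against 11.9% of all genes, and 2 (Nr1d1 and Clock) were apart against 14.3%, with a median of -0.11. The interaction called 0 of 10 against 1.15% of all genes. Without wild-type LPS replicate 1, 4 of 10 clock genes were called in wild-type LPS over wild-type PBS (3 higher, 1 lower), 4 in knockout LPS over wild-type LPS (2 higher, 2 lower) and 2 in the interaction, while all genes called numbered 3380, 4005 and 2655 of 16504. Without the library labelled knockout PBS replicate 1, 0 clock genes were called in knockout LPS over knockout PBS or in knockout PBS over wild-type PBS. By edgeR, the fit of the 8 wild-type libraries alone called 0 of 15801 genes, with 3012 at an unadjusted p under 0.05, so no call of any gene or list with LPS in wild type held in that fit. The comparisons share groups, so these counts are not independent of each other.

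Of 20 other clock genes, 2 rose with LPS in wild type, none fell, and 18 did not pass, a share near the 8.57% of all genes called there. Cry2, the second Cryptochrome, stood at 156, 182, 163 and 162 CPM in wild-type LPS, above the 149, 129, 134 and 138 CPM of wild-type PBS (log2 fold change 0.27 ± 0.06, adjusted p = 0.0202). Timeless, which in mammals serves DNA replication as well as the clock, stood at 5.10, 7.22, 8.14 and 7.58 CPM in wild-type LPS, above 4.50, 4.52, 4.71 and 4.95 CPM in wild-type PBS (0.59 ± 0.14, adjusted p = 0.0204). Both were among the 3 of 20 that were lower in knockout LPS than in wild-type LPS, where 11.9% of all genes were called, Cry2 by -0.22 ± 0.06 (adjusted p = 0.0352) and Timeless by -0.59 ± 0.14 (adjusted p = 0.0161) on the log2 scale. The third was Arntl2, the paralogue of Arntl, at 9.73, 11.1, 8.44 and 10.3 CPM in knockout LPS against 13.4, 14.2, 14.2 and 14.1 CPM in wild-type LPS (log2 fold change -0.50 ± 0.08, adjusted p = 0.00359). In those libraries Cry2 and Arntl2 did not overlap, and Timeless overlapped through wild-type LPS replicate 1. With all libraries, none of the 20 passed in the other 2 group comparisons or in the interaction. On leaving out wild-type LPS replicate 1, Cry2, Timeless and Arntl2 kept these calls, at 0.29 ± 0.07 for Cry2 and 0.71 ± 0.12 for Timeless with LPS in wild type, and Btrc, an F-box protein that marks Period proteins for breakdown, fell there (log2 fold change -0.23 ± 0.06, adjusted p = 0.0108). That setting also put, in knockout LPS over wild-type LPS, Btrc higher (0.31 ± 0.06, adjusted p = 0.00104) and Tef lower (-0.26 ± 0.09, adjusted p = 0.0469). It brought 4 of the 20 past the threshold in the interaction, Timeless at -0.75 ± 0.16, Rorb at 1.43 ± 0.32, Btrc at 0.31 ± 0.08 and Arntl2 at -0.42 ± 0.12, with adjusted p of 0.00669, 0.00894, 0.0137 and 0.0308. Calls over all genes also rose in that setting. They numbered 3380 with LPS in wild type, 4005 in knockout LPS over wild-type LPS and 2655 in the interaction, of 16504 genes. With all libraries they were 1394, 1935 and 187 of 16269. In fits of only the 8 libraries compared, Cry2 and Timeless lost their calls in both comparisons, with adjusted p from 0.0729 to 0.115. Arntl2 kept its own, and Rora was higher in knockout LPS than in wild-type LPS (adjusted p = 0.0427 for each). In that fit 4 of 12 thalamic and cerebellar markers were also higher, where 438 of 15982 genes were called, 219 of them higher. In wild-type PBS, Rora stood at 68.6, 183, 184 and 38.0 CPM and Rorb at 25.9, 34.6, 36.9 and 16.6 CPM. The marker sums there were 251, 916, 938 and 165 CPM. In knockout PBS replicate 2, with a sum of 1123 CPM, Rora stood at 113 and Rorb at 15.4 CPM. The part of that tissue in the Rora and Rorb values was not tested. With all libraries, the median log2 fold change of the 20 was 0.08 in knockout LPS over knockout PBS, 0.10 in wild-type LPS over wild-type PBS, -0.07 in knockout PBS over wild-type PBS and -0.06 in knockout LPS over wild-type LPS.

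**Figure D4:**
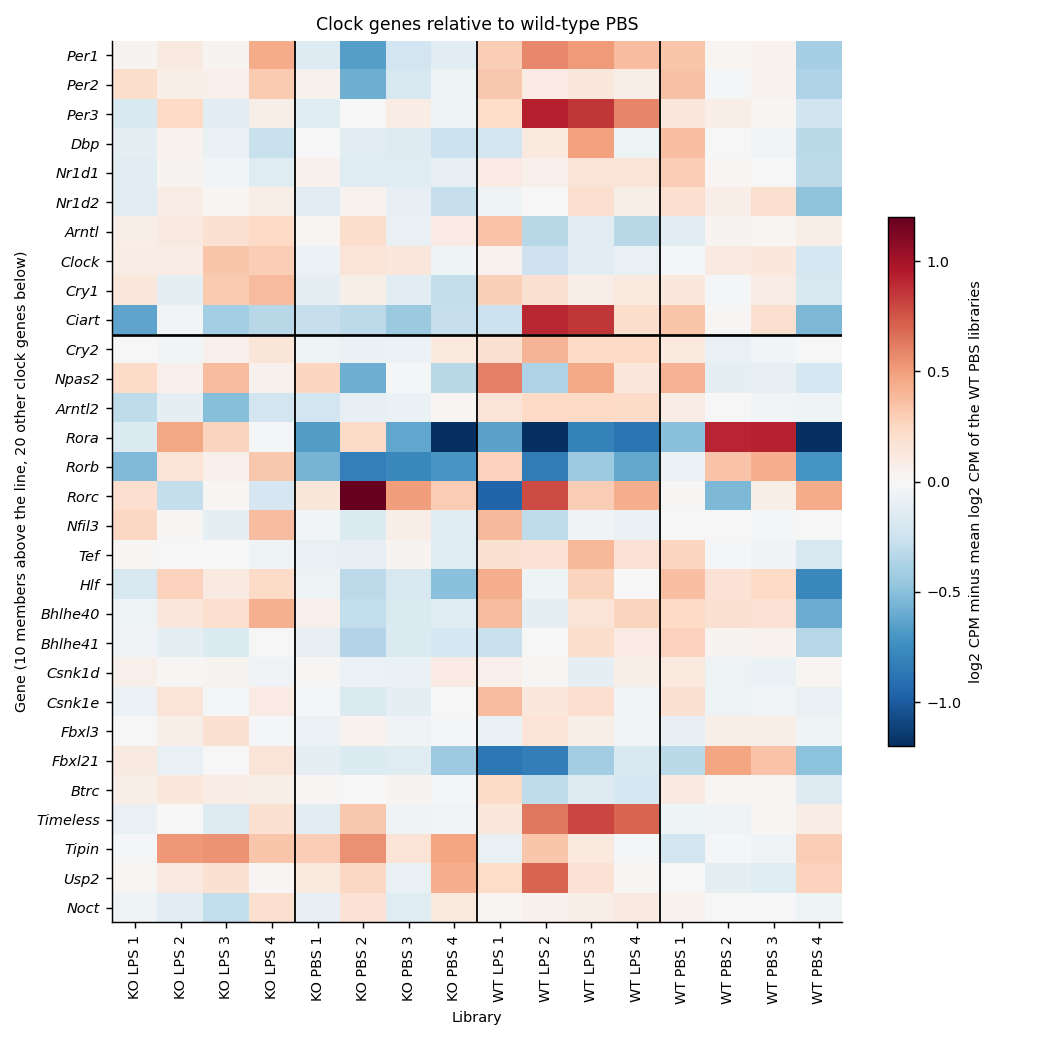
Log2 CPM of the 10 clock genes (above the line) and 20 other clock genes (below it) in each library, minus the mean of wild-type PBS, with colours at their limit beyond 1.2 in size. Per3 and Ciart lie furthest above the wild-type PBS mean in wild-type LPS replicates 2 and 3, at 89.0 and 84.7 CPM for Per3, against 54.5 CPM in wild-type LPS replicate 1.

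Within groups, some members deviated together from library to library. The highest Pearson r among the 45 pairs, on deviations of log2 CPM from group means, was 0.91 for Per3 with Ciart (Spearman rho 0.81), then 0.82 for Per1 with Per2 (rho 0.63) and 0.79 for Dbp with Ciart (rho 0.71). Nr1d1 went with Dbp at 0.71 (rho 0.63), and Clock with Cry1 at 0.70 (rho 0.65). For Nr1d1 with Nr1d2 the measures differed, at r = 0.70 and rho = 0.38. Arntl ran the other way from Per3 at r = -0.61 (rho -0.46) and from Ciart at -0.54 (rho -0.36), r values that were -0.13 and -0.03 without wild-type LPS replicate 1. For Dbp, the r without that library was 0.73 with Ciart and 0.78 with Nr1d1. That library was the lowest of wild-type LPS for both Per3 and Ciart, at 54.5 and 7.63 CPM. The r of Per3 with Ciart was not taken without it, so how far 0.91 rested on it is not known. These correlations are descriptions, and the points share libraries and scaling. The difference of log2 CPM between Dbp and Arntl, genes that normally peak at opposite times of day, was 0.40, 0.53, 0.33 and 0.09 in knockout LPS and 0.56, 0.24, 0.53 and 0.24 in knockout PBS. It was 0.03, 1.05, 1.22 and 0.87 in wild-type LPS and 1.08, 0.55, 0.54 and 0.21 in wild-type PBS. Wild-type LPS replicates 2 to 4 and wild-type PBS replicate 1 were the high libraries, and wild-type LPS replicate 1 the lowest of all.

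Among 13302 genes with a mean log2 CPM of at least 1, those most like Dbp over the 16 libraries were Kdsr (r = 0.91), Repin1 (0.86), Dctn4 (0.86), Tef (0.83) and Zfp874a (0.81). Of these Tef, a D-box factor of the same family as Dbp, is the only one on the list of other clock genes. Leaving out wild-type LPS replicate 1 gave 0.89, 0.86, 0.84, 0.87 and 0.80 for the same genes. Those most like Arntl were Cryzl1 (0.93), Chac1 (0.91), Tuba4a (0.91), Mrpl3 (0.90) and Nr2c2 (0.90), none of them a listed clock gene. Without wild-type LPS replicate 1 they stood at 0.81, 0.69, 0.64, 0.68 and 0.70, so the likeness to Arntl rested in part on that library.

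Inflammatory and glucocorticoid genes rose in wild type together with Per3. Ciart did not pass there, and in wild-type LPS replicate 4 it stood at 10.6 CPM, inside the wild-type PBS range. A score, the mean log2 CPM of a list relative to wild-type PBS, stood at 0.33, 4.02, 4.04 and 3.91 for 12 LPS-response genes in wild-type LPS, between -0.27 and 0.24 in knockout LPS, between -0.32 and 0.0 in knockout PBS and between -0.18 and 0.17 in wild-type PBS. All 12 rose in wild-type LPS over wild-type PBS, where 8.57% of all genes were called. All 12 were lower in knockout LPS than in wild-type LPS, where 11.9% were called. This list and the glucocorticoid list below were chosen with earlier results of these data known, so their counts are descriptions only. For 14 glucocorticoid-responsive genes the score was -0.03, 1.49, 1.23 and 0.98 in wild-type LPS, in the same order of libraries as Per3 and Ciart, and between -0.31 and 0.25 elsewhere. Of these, 9 rose with LPS in wild type, with a median log2 fold change of 0.90, and 9 were lower in knockout LPS than in wild-type LPS, with a median of -0.98. Map3k6, a stress-activated kinase, rose by 2.35 ± 0.37 (adjusted p = 0.00343) and Cdkn1a, a cell cycle inhibitor, by 2.20 ± 0.38 (adjusted p = 0.00455) on the log2 scale in wild type. In the knockout 0 of 14 passed with LPS, with a median of 0.10. With wild-type LPS replicate 1 left out, 12 of 14 rose in wild type and all 12 LPS-response genes still did, where 3380 of 16504 genes were called. Their part in the Per3 and Ciart results was not tested.

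**Figure D5:**
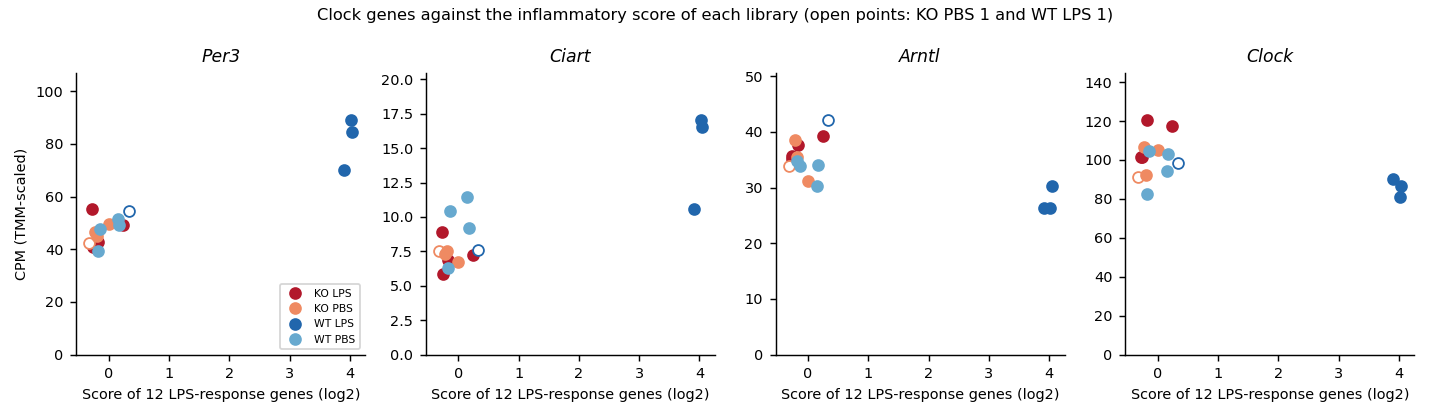
CPM of Per3, Ciart, Arntl and Clock (y axes, from 0) against the score of 12 LPS-response genes (x axis, mean log2 CPM relative to wild-type PBS) in each of 16 libraries. Wild-type LPS replicates 2 to 4, at scores from 3.91 to 4.04, stand apart from the other 13 libraries, and wild-type LPS replicate 1 (open, 0.33) lies with those.

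Immediate early genes, which neuronal activity induces, differed among the LPS libraries. Their summed level over 10 genes was 497, 712, 575 and 1312 CPM in knockout LPS, 420 to 671 CPM in knockout PBS, 1628, 728, 880 and 599 CPM in wild-type LPS and 593 to 858 CPM in wild-type PBS. Knockout LPS replicate 4, the highest knockout library for Per1, was also the highest knockout library for this list, while wild-type LPS replicate 1, the highest library of all for the list, had the lowest Per1 of its group. The list had 0 of 10 called with LPS in the knockout, where 0.0% of all genes were. In wild type, where 8.57% of all genes were called, 1 of the 10, Junb, rose (0.75 ± 0.20, adjusted p = 0.0288). Its part in the Per1 values was not tested.

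Markers of tissue content differed between groups as well. Of 8 oligodendrocyte markers, 6 fell in wild-type LPS against wild-type PBS, where 8.57% of all genes were called. Their summed level was 3303 to 7879 CPM in wild-type LPS and 6648 to 8777 CPM in wild-type PBS. In knockout LPS against wild-type LPS, where 11.9% of all genes were called, 6 of the 8 were higher. Their summed level was 6824 to 7466 CPM in knockout LPS. Of 13 thalamic and cerebellar markers tested, 5 fell in wild-type LPS against wild-type PBS and 4 were higher in knockout LPS than in wild-type LPS, at summed levels of 267 to 629 CPM in knockout LPS, 110 to 1123 CPM in knockout PBS, 120 to 235 CPM in wild-type LPS and 165 to 938 CPM in wild-type PBS. Gabra6, which marks cerebellar granule cells, was at 0 in 8 libraries and at 114 CPM in knockout PBS replicate 2, where the cerebellar genes Cbln3, Cbln1 and Pcp2 stood at 302, 153 and 65.3 CPM. The part of that tissue in the Per1 and Per2 values of that library was not tested. Choroid plexus markers summed to 15.5 CPM in wild-type LPS replicate 1 and 13.1 CPM in wild-type PBS replicate 1, against 576 to 3482 CPM in the other 14 libraries, and 0 of 10 passed in any comparison. Of 5 endothelial markers, which had 3 higher and 2 lower without wild-type LPS replicate 1, 1 rose and 2 fell with LPS in wild type, and of 5 astrocyte markers 1 rose. Of 5 microglial markers 1 fell, against 3 higher and 1 lower without that library, and 0 of 5 red cell and 0 of 4 hypothalamic markers passed. In knockout LPS over wild-type LPS, 3 endothelial markers were lower, 1 astrocyte marker was higher and 1 lower, and 1 microglial marker was higher. With lists of 5 markers, a count of 1 cannot be told from the shares of all genes given above. In bulk tissue, fewer cells of a type and less RNA per cell cannot be told apart, and the part of these shifts in the Per3, Ciart and Clock results was not tested. Without wild-type LPS replicate 1, the same number of oligodendrocyte markers fell with LPS in wild type, 6 of 8, and 5 of 8 were higher in knockout LPS than in wild-type LPS, as was 1 of 13 thalamic and cerebellar markers. That setting called 3380 of all 16504 genes with LPS in wild type and 4005 in knockout LPS over wild-type LPS. The 10 female libraries alone were compared after the data were seen, which also leaves out wild-type LPS replicate 1. They number 2 in each knockout group and 3 in each wild-type group, and include the doubtful knockout PBS replicate 1. Among them, Per3 was -0.75 ± 0.13 and Ciart -0.99 ± 0.23 in knockout LPS over wild-type LPS (adjusted p = 0.00705 and 0.0234). Per3 was 0.71 ± 0.12 in wild-type LPS over wild-type PBS (adjusted p = 0.00337).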

How the data were processed

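RNA from mouse hippocampus was sequenced after column extraction and library preparation with an NEBNext Ultra kit, per the labels' protocols. The authors deposited 1 table of whole-number counts per gene for 16 libraries. Per the submitters' processing notes, Salmon 1.9.0, MultiQC 1.13, DESeq2 and DESeq were used, with no role given, and the build and the use of strand are not given in the sources used here. If the counts came from Salmon, they were rounded before deposit. No gene in the table sums to under 10 counts, and 120 identifiers without a symbol held 0.106% of counts.

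Counts of all 16 libraries were fitted together, 1 mean per group, with edgeR 4.0.16 in R 4.3.3 (TMM scaling, filterByExpr, quasi-likelihood test, Benjamini-Hochberg adjustment over 16269 genes, threshold 0.05). The filter removed 3180 genes and kept 99.97% of counts. Depth ran from 30198619 to 50009041 counts, and the common biological coefficient of variation was 0.177. CPM was computed from TMM-scaled library sizes, with a prior count of 2 on the log2 scale. The fit was tested on simulated data.

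The clock genes and the lists were chosen with earlier results of these data known. Named genes are the 10 clock genes, other clock genes past the threshold, up to 2 genes with the smallest p from each other list, and the 5 genes most like Dbp and Arntl. Btrc, Tef, Rora, Rorb and the cerebellar genes were named after their values were seen. Alternatives were RLE scaling, DESeq2 1.42.0, limma 3.58.1 with voom and sample weights, no filter, a replicate block, sex as a covariate, fits of the 8 libraries compared, and leaving out libraries. Sex was read from 4 Y-linked genes. Female libraries alone, and the list counts with libraries left out or in fits of 8 libraries, were added after the data were seen. Wild-type PBS replicates 2 and 3 had a chi-square of 3.78 per gene, beyond sampling noise, against 12.3 to 113 for the other pairs within groups, and were kept as separate libraries. Replicate numbers were not used as pairs in the main fit. Of 24 same-numbered pairs, 7 had a correlation of deviations over 0.1, in a range from -0.39 to 0.44. No reference level was set for this check, so it does not settle whether the numbers pair the libraries. Gene coordinates are from GENCODE M21 (GRCm38) and promoters from RefSeq (GRCm38.p6), where 9 of the 10 clock genes were matched and Per2 was not.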

Additional observations from a re-analysis of the deposited data

Results flagged for a closer look

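Per1 in knockout LPS replicate 4 stood at 162 CPM, away from the 120.84, 127.39 and 121.01 CPM of the other knockout LPS libraries. Its gap to the nearest library, as a share of the group's range, passed Dixon's 95% critical value for 4 values. It was the only one of 40 sets of 4 libraries (10 clock genes in 4 groups) to do so, where chance flags about 1 in 20. In the same library the 10 immediate early genes summed to 1312 CPM, against 497, 712 and 575 CPM in the other knockout LPS libraries. The part of that list in the Per1 value was not tested.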

How the results depend on the processing

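In wild-type LPS over wild-type PBS, where 1394 genes and 1 clock gene were called, DESeq2 called 2096 genes (2 clock genes), voom with sample weights 4684 (3), the fit of 8 libraries 0 (0), leaving out knockout PBS replicate 1 and wild-type LPS replicate 1 together 3271 (3), the sum of wild-type PBS replicates 2 and 3 in place of both 670, and female libraries alone 3832 (4). In knockout LPS over wild-type LPS, with 1935 and 3, voom called 4073 genes, the fit of 8 libraries 438 (0 clock genes), leaving out both libraries 3907, and female libraries alone, which also lack wild-type LPS replicate 1, called 2254 genes (5 clock genes). With knockout PBS over wild-type PBS, DESeq2 called 17 genes, voom 308, the summed libraries 1 and female libraries 19, and with knockout LPS over knockout PBS DESeq2 called 3. For the interaction, with 187 and 0, RLE scaling called 63 genes, DESeq2 1278 (1 clock gene), voom 4029 (3), no filter 39, the sex covariate 40, leaving out both libraries 2400 (1), the summed libraries 0 and female libraries 1820 (1). The cause of these shifts was not tested.

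The replicate numbers share no stated source. As a block they gave 3 genes for knockout PBS over wild-type PBS and 0 for the interaction, and 8 of 16 libraries correlated best with their own number. With the replicate block, Per3 was 0.65 (adjusted p = 0.0151) with LPS in wild type and -0.65 (adjusted p = 0.0128) in knockout LPS over wild-type LPS, where Ciart was -0.82 (adjusted p = 0.0422) and Clock 0.30 (adjusted p = 0.0556).

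Leaving out 1 library at a time gave 0 to 1 genes for knockout LPS over knockout PBS, 538 to 3380 (1 to 4 clock genes) for wild-type LPS over wild-type PBS, 1 to 9 for knockout PBS over wild-type PBS, 858 to 4005 (1 to 4) for knockout LPS over wild-type LPS and 0 to 2655 (0 to 2) for the interaction. Per3 stayed past the threshold in each, at 0.57 to 0.79 with LPS in wild type (adjusted p from 0.000204 to 0.0393) and at -0.79 to -0.57 in knockout LPS over wild-type LPS (adjusted p from 0.000202 to 0.0341), but not in the fits of 8 libraries (adjusted p = 0.0899 and 0.058).

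Reversals were of values that had not passed. In knockout LPS over knockout PBS, Per3 was -0.01 and Ciart 0.01 without both libraries, Ciart 0.07 by voom and Nr1d1 -0.02 in females. In wild-type LPS over wild-type PBS, Per2 was -0.03 and Nr1d2 -0.08 in females, and Nr1d2 -0.01 by voom. In knockout PBS over wild-type PBS, Per3 was 0.02 with the sex covariate and 0.01 without both libraries, Clock -0.04 by voom and -0.14 in females, and Arntl 0 by voom. In knockout LPS over wild-type LPS, Cry1 was -0.02 by voom, -0.01 with the sex covariate and -0.10 in females. For the interaction, Per1 was -0.01 by voom and -0.13 in females, and Dbp 0.01 in females. Leaving out 1 library gave, for knockout LPS over knockout PBS, Per3 -0.05 to 0.09, Dbp -0.01 to 0.09, Nr1d1 -0.01 to 0.07 and Ciart -0.13 to 0.08. It gave Dbp -0.06 to 0.23 and Nr1d2 -0.11 to 0.10 for wild-type LPS over wild-type PBS, and Per3 -0.10 to 0.02, Nr1d1 -0.19 to 0.01 and Clock -0.03 to 0.08 for knockout PBS over wild-type PBS. It gave Per2 -0.05 to 0.07, Nr1d2 -0.07 to 0.01 and Cry1 -0.05 to 0.12 for knockout LPS over wild-type LPS, and Per1 -0.09 to 0.14, Dbp -0.19 to 0.10 and Nr1d1 -0.19 to 0.01 for the interaction. In all, 748 of 800 values with 1 library left out and 448 of 490 under the other settings kept their direction and side of the threshold. The lowest count behind a clock gene was 224, for Ciart.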
